A study of Mus musculus with 24 samples.

Results

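The genes described here are the mouse genes whose symbol begins with Nduf, the prefix given to the nuclear-encoded subunits of respiratory complex I and to a group of its assembly factors. All gene symbols in the deposited count tables were searched for that prefix, and 45 of 39487 gene identifiers matched. Of these 45 genes, 38 have subunit symbols and 7 are the assembly factors Ndufaf1 to Ndufaf7. All 45 were in both tables and passed the filters on low counts. The libraries come from poly(A)-selected RNA of subcutaneous white fat taken near the flank of C57BL/6J mice with a transgenic γ1 subunit of AMPK, the protein kinase that senses low cellular energy. Both genotypes are transgenic. The D316A-Tg mice carry the D316A form of γ1, a gain-of-function form, and the WT-Tg mice carry the unmutated form. The 4 groups were D316A-Tg on a 45% high-fat diet (HFD) at 24 weeks of age, WT-Tg on HFD at 24 weeks, D316A-Tg on chow at 16 weeks and WT-Tg on chow at 16 weeks, with 6 libraries in each. The sources used here do not name the promoter or cell types that drive the transgene, and no group without a transgene was analysed here. The labels do not say that each library is a separate animal, so the p-values measure the spread between these libraries.

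Complex I is the largest enzyme of the respiratory chain and the main entry point for electrons from NADH. Its peripheral arm oxidises NADH in the N module and hands the electrons to ubiquinone in the Q module, and its membrane arm, with a proximal and a distal part, pumps protons out of the matrix. A small core of subunits carries the redox groups and the proton channels and is conserved from bacteria, and the accessory subunits surround this core. Part of the membrane core is encoded by mitochondrial DNA, so the nuclear genes alone do not make the enzyme. Assembly factors build and join the modules and are absent from the finished complex. White fat cells hold few mitochondria beside brown fat cells, whose dense mitochondria burn fuel for heat.

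By module, 10 of the genes belong to the N module, 5 to the Q module, 10 to the proximal and 11 to the distal membrane arm, and 7 are core subunits. The other 2 subunit symbols are Ndufa4, now assigned to cytochrome c oxidase (complex IV), and its paralogue Ndufa4l2, a gene induced by low oxygen in many cells. They were kept because the symbol chose the members, and they are named separately wherever they behaved differently.

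The promoters were searched because many of these genes moved together on chow. Of the 45 genes, 39 had a promoter entry in RefSeq (GRCm38.p6), 33 subunits and 6 assembly factors, and the 250 bases before each start were read on the strand of the gene. The motif bound by NRF1, an activator of nuclear genes for mitochondrial proteins, was searched as GCGC, then A and any base N, then GCGC again. It was found on either strand in 6 of 33 subunit promoters (18.2%) and in 1 of 6 assembly factor promoters (16.7%), against 3.86% of all 27025 promoters. The 6 subunits were Ndufa5, Ndufa8, Ndufa11, Ndufb4, Ndufs5 and Ndufs6, and the assembly factor was Ndufaf4. The stricter motif with T as the free base, a subset of these matches, stood in Ndufa11 and Ndufaf4 and in 0.781% of all promoters. Those 2 promoters and that of Ndufs5 are printed 5′ to 3′ with the motif in capitals. Counted on its own, Ndufs5 had the largest D316A-Tg difference of the subunits on chow. With the counts of a copy of its sequence added, its log2 fold change was 0.68 and did not pass the test (adjusted p = 0.101 by edgeR).
Ndufa11 promoter, chr17:56717512-56717761, plus strand: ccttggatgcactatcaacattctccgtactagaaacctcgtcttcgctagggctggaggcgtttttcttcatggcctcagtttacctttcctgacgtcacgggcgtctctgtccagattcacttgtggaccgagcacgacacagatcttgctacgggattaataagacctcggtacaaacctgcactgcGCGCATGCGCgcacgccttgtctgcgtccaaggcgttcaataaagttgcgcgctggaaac
Ndufaf4 promoter, chr4:24897833-24898082, plus strand: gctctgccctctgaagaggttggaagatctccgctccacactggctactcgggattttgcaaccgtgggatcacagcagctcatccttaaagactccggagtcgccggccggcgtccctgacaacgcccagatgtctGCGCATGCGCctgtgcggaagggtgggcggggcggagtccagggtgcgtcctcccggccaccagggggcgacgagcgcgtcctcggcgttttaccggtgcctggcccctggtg
Ndufs5 promoter, chr4:123718187-123718436, minus strand: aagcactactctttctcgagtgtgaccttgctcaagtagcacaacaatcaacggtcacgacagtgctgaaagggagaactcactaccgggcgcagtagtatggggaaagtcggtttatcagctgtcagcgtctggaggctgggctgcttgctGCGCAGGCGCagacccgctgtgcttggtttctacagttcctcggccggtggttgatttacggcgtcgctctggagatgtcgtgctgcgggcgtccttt
The motif began 60 bases before the start in Ndufa11, 113 bases before it in Ndufaf4 and 98 bases before it in Ndufs5. The ETS-family motif CCGGAAG was found in 3 of 33 subunit promoters (Ndufb6, Ndufb7 and Ndufs3) and in 1 of 6 assembly factor promoters (Ndufaf1), against 7.05% of all promoters. CCAAT was found in 10 of 33 and 3 of 6, against 34.5%. The letters TCAAGGTCA of an oestrogen-related receptor motif were in none of the 39 windows, against 0.366% of all promoters. Both strands were searched for each motif. The subunit promoters had a median GC content of 57.6% and the assembly factor promoters 61.6%, against 52.0% over all promoters.

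Total counts ran between about 16373700 and 20774500 in D316A-Tg HFD libraries, 19063600 and 22748100 in WT-Tg HFD, 14756300 and 17766500 in D316A-Tg chow, and 13254500 and 17685700 in WT-Tg chow. The fat cell identity was plain, with the summed level of 10 mature adipocyte genes such as Adipoq and Fabp4 between 19035 and 75096 CPM (counts per 1000000 counts) over all libraries. Other cell types were present unevenly. A library is called lymphocyte-rich here when its mean log2 CPM over 10 B lymphocyte genes exceeded 3, which held for 4 of 6 D316A-Tg HFD, 1 of 6 WT-Tg HFD, 2 of 6 D316A-Tg chow and 4 of 6 WT-Tg chow libraries, although the inguinal lymph node had been removed. The summed level of 12 skeletal muscle genes ran from 216 to 21382 CPM in D316A-Tg HFD, 17.6 to 212 CPM in WT-Tg HFD, 10.5 to 546 CPM in D316A-Tg chow and 12.8 to 10603 CPM in WT-Tg chow. Prkag1, the gene of the transgenic subunit, averaged 384 ± 173, 319 ± 18.4, 372 ± 84.6 and 395 ± 88.0 CPM in the same order of groups (SD, n = 6 each). Its counts do not separate the transgene from the mouse gene or the D316A form from the unmutated form, so they do not check the genotype labels.

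Subunit transcripts were far more abundant than those of the assembly factors in all 4 groups, and D316A-Tg fat on chow had the most of both. The subunit score, the mean log2 CPM over the 38 subunit symbols, averaged 6.48 ± 0.25 in D316A-Tg HFD, 6.41 ± 0.13 in WT-Tg HFD, 7.22 ± 0.38 in D316A-Tg chow and 6.40 ± 0.37 in WT-Tg chow (SD, n = 6 each). The lowest, median and highest libraries stood at 6.59, 7.41 and 7.57 in D316A-Tg chow, against 5.97, 6.43 and 6.82 in WT-Tg chow. On HFD they stood at 6.23, 6.44 and 6.96 in D316A-Tg libraries, against 6.29, 6.36 and 6.66 in WT-Tg libraries. The chow groups overlapped at their edges, through 1 lymphocyte-rich D316A-Tg library, and the WT-Tg HFD libraries lay inside the range of the D316A-Tg HFD libraries.

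The assembly score over the 7 factors was likewise highest on average in D316A-Tg chow, and varied less between libraries than the subunit score in all groups but WT-Tg HFD. It averaged 4.16 ± 0.19 in D316A-Tg HFD, 4.06 ± 0.16 in WT-Tg HFD, 4.64 ± 0.31 in D316A-Tg chow and 4.08 ± 0.26 in WT-Tg chow. The libraries of D316A-Tg HFD and of WT-Tg chow had the same rank by both scores in 6 of 6 cases, against 4 of 6 in D316A-Tg chow and 3 of 6 in WT-Tg HFD. The gap between the classes, subunit minus assembly score in each library, averaged 2.33 ± 0.07 in D316A-Tg HFD, 2.35 ± 0.06 in WT-Tg HFD, 2.58 ± 0.09 in D316A-Tg chow and 2.33 ± 0.12 in WT-Tg chow. The mean gap was thus alike in 3 groups and wider in D316A-Tg chow. It ran from 2.44 to 2.69 there, against 2.16 to 2.44 in WT-Tg chow, the 2 groups just touching. Age and count table go with the diet, so their parts in the gaps of chow and HFD groups cannot be told apart. D316A-Tg exceeded WT-Tg in this gap by 0.25 on chow, by 0.19 with the lymphocyte-rich libraries left out, and the difference was -0.02 on HFD. Summed over each class, the CPM of the subunits was 29.3 ± 2.71 times that of the assembly factors in D316A-Tg HFD, 28.7 ± 1.14 times in WT-Tg HFD, 39.0 ± 2.90 times in D316A-Tg chow (35.4 to 42.7) and 31.8 ± 2.75 times in WT-Tg chow (27.8 to 34.2). These scores run over members and carry no test.

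**Figure D1:**
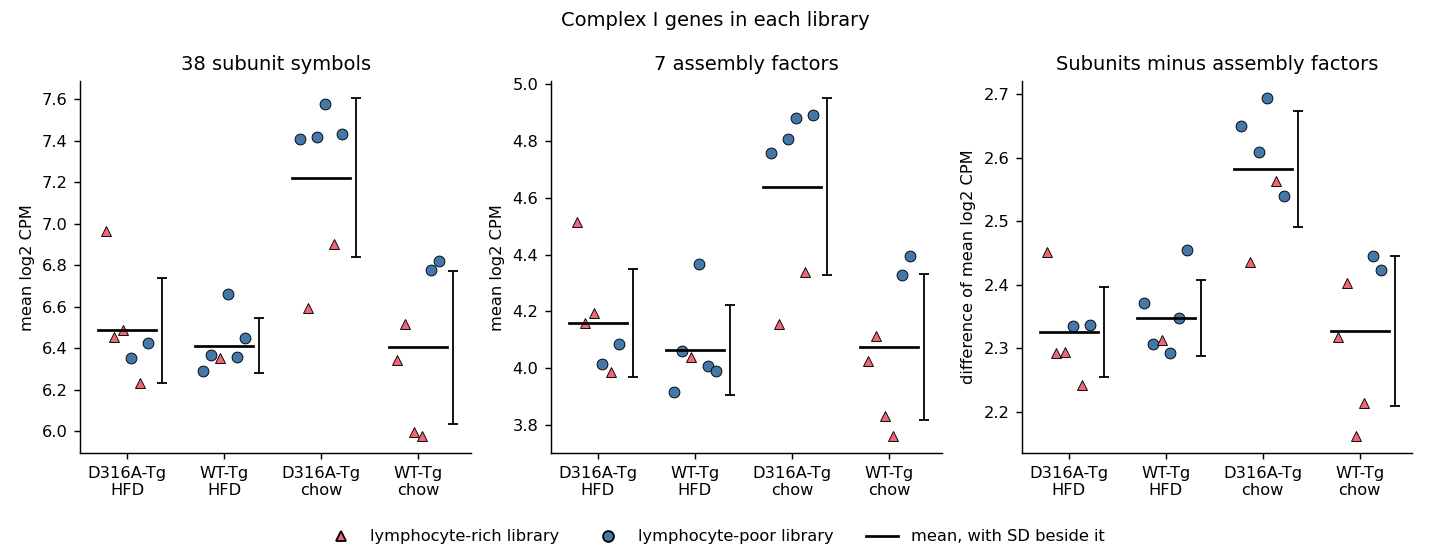
Mean log2 CPM of the 38 subunit symbols (left), of the 7 assembly factors (middle) and their difference (right) in each of the 24 libraries by group. Points are libraries, triangles are lymphocyte-rich libraries, horizontal lines are means and bars beside them are SD. The D316A-Tg chow libraries without lymphocyte signal have the highest scores, 7.41 to 7.57 for subunits.

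Within a genotype the lymphocyte-rich chow libraries had the lower scores. Subunit scores were 6.59 and 6.90 in the 2 lymphocyte-rich D316A-Tg chow libraries and 7.41 to 7.57 in the other 4, against 5.97 to 6.52 in the 4 lymphocyte-rich WT-Tg chow libraries and 6.77 to 6.82 in the other 2. Among both kinds of library the D316A-Tg chow values lay above the WT-Tg chow values. The assembly scores were 4.16 to 4.34 and 4.76 to 4.89 in the same kinds of D316A-Tg chow library, against 3.76 to 4.11 and 4.33 to 4.39 in WT-Tg chow. Among the D316A-Tg HFD libraries the highest subunit score, 6.96, was in library 7, which also had the highest muscle score of all 24 libraries, 9.28, and the highest score over 8 brown and beige fat cell genes, 6.96. Those 8 genes summed to 1894 CPM in library 7, against 129 to 344 CPM in the other 5 D316A-Tg HFD libraries, and the part of either cell type in its subunit score was not tested. In bulk tissue, fewer cells of a type and less RNA per cell cannot be told apart.

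Per kilobase of exon, the levels ranged over more than the classes. The median subunit had 55.0 CPM per kilobase in D316A-Tg HFD, 50.9 in WT-Tg HFD, 122 in D316A-Tg chow and 62.4 in WT-Tg chow. The median assembly factor had 7.64, 7.51, 11.0 and 7.47 CPM per kilobase in these groups. The ratio of the medians was 7.20 in D316A-Tg HFD, 6.77 in WT-Tg HFD, 11.0 in D316A-Tg chow and 8.36 in WT-Tg chow. The same 5 small subunits, Ndufa1, Ndufa2, Ndufa4, Ndufb3 and Ndufb9, held the top 5 places in every group by the length of all exons together. By the longest transcript Ndufb9 led in every group, and on HFD Ndufa7 took the place of Ndufa1 among the top 5. By all exons, Ndufa1, a short membrane-anchored subunit needed for assembly, led on chow with 444 ± 95.4 CPM per kilobase in D316A-Tg and 230 ± 51.7 in WT-Tg, and the next in order, Ndufb9 at 429 ± 129 in D316A-Tg and Ndufb3 at 206 ± 73.7 in WT-Tg, differed from it by less than the SD between libraries. On HFD the first place was held by Ndufa4 at 228 ± 51.6 in D316A-Tg and by Ndufb3 at 216 ± 27.2 in WT-Tg, again within the SD of the next gene.

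At the low end, Ndufaf2, which joins late assembly intermediates, was the lowest assembly factor in every group, with 4.12 CPM per kilobase in D316A-Tg HFD, 4.23 in WT-Tg HFD, 6.76 in D316A-Tg chow and 4.57 in WT-Tg chow. Ndufaf1, part of the complex that builds the membrane arm, was the highest, at 24.1, 22.1, 28.0 and 18.8 CPM per kilobase in the same groups. Some subunits reached these low levels too, among them Ndufb4, with 10.3 CPM per kilobase in D316A-Tg HFD, 10.2 in WT-Tg HFD, 5.71 in D316A-Tg chow and 3.57 in WT-Tg chow. No member was at 0 in any library, and the lowest value was 1.61 CPM, for Ndufa4l2 in a D316A-Tg chow library. The coefficient of variation between libraries had a median over subunits of 25.4% in D316A-Tg HFD, 11.6% in WT-Tg HFD, 24.4% in D316A-Tg chow and 26.1% in WT-Tg chow, against 17.9%, 12.4%, 20.9% and 20.8% over the assembly factors.

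On chow, most subunits were called higher in D316A-Tg fat, and so were some assembly factors. In edgeR's quasi-likelihood test with Benjamini-Hochberg adjustment over 15249 genes, called below an adjusted p of 0.05, 27 of 38 subunits rose and none fell, while 5.30% of all genes were called higher, 3.25% lower and 8.54% in either direction. The median log2 fold change of the subunits was 0.88, a 1.84-fold difference, against a median of -0.07 over all genes tested. Of the 7 assembly factors 2 rose, and their median log2 fold change was 0.57, a 1.48-fold difference. The other 5 were 0.49 to 0.58 higher on the log2 scale without passing the test. All 38 subunits and all 7 assembly factors had an unadjusted p below 0.05. By module the number called higher was 7 of 10 in the N module, 8 of 10 in the proximal and 7 of 11 in the distal membrane arm, with module medians of 0.88, 0.91 and 0.85. The sizes of the change in the classes were not compared by a test. Mature adipocyte transcripts were also more abundant on average in D316A-Tg chow, where the summed level of the 10 genes ran from 24278 to 75096 CPM, against 19035 to 51047 CPM in WT-Tg chow. Of these 10 genes 9 had a positive log2 fold change, with a median of 0.67, and none was called, while 2 had an unadjusted p below 0.05. With the adipocyte score as a covariate, the subunit median was 0.57 and the assembly factor median 0.31, with 36 subunits and 3 assembly factors called higher, among 20.8% of all genes.

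The number called rested on single libraries, and the size of the difference did not. Without D316A-Tg library 7, 9, 10 or 12 on chow, 1, 2, 2 and 2 subunits were called, and without WT-Tg library 1, 2, 3 or 4 on chow, 6, 7, 2 and 7. Without D316A-Tg library 8, which is lymphocyte-rich, 37 were called, among 3360 genes in all, against 140 genes in all without D316A-Tg library 7. The median log2 fold change of the subunits stayed between 0.78 and 0.98, and that of the assembly factors between 0.48 and 0.67, when each library was left out in turn. When lymphocyte-rich libraries were given a term of their own in the fit, 37 subunits and 6 assembly factors were called higher, 28.9% of all genes were called, and the subunit median was 0.66. With the lymphocyte-rich libraries left out, 36 subunits and 4 assembly factors were called higher, among 15.3% of all genes, with a subunit median of 0.70. With the muscle score as a covariate, 2 subunits and none of the assembly factors were called, among 1.71% of all genes, and the subunit median was 0.93.

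In the N module, Ndufv2, the iron-sulphur partner of the NADH-binding subunit, had 184, 310 and 336 CPM (lowest, median and highest library) in D316A-Tg chow, against 106, 151 and 180 CPM in WT-Tg chow. The 2 groups did not overlap, and the log2 fold change was 0.95 (SE 0.19, adjusted p = 0.0216). Ndufa6, an accessory subunit that binds the acyl carrier protein Ndufab1 in the peripheral arm, had 156, 245 and 276 CPM in D316A-Tg chow, against 87.8, 119 and 143 CPM in WT-Tg chow. It did not overlap between the groups either (log2 fold change 0.96, SE 0.17, adjusted p = 0.0148). Ndufv1, which binds NADH and the flavin, and Ndufs1, the largest core subunit with several iron-sulphur clusters, rose by 0.85 (SE 0.22, adjusted p = 0.0395) and 0.90 (SE 0.22, adjusted p = 0.0349) on the log2 scale, and their groups overlapped.

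In the Q module, Ndufs8, a core subunit that passes electrons towards ubiquinone, had 95.5, 147 and 183 CPM in D316A-Tg chow, against 50.8, 80.9 and 91.7 CPM in WT-Tg chow. Every D316A-Tg chow library lay above every WT-Tg chow library for Ndufs8 (log2 fold change 0.89, SE 0.19, adjusted p = 0.0233). Ndufs7, which lines the ubiquinone pocket, differed by 0.67 (SE 0.22) and did not pass the test (adjusted p = 0.0755). Ndufs3, another core subunit of this module, rose by 0.75 (SE 0.18, adjusted p = 0.0338). Accessory subunits of all modules were called higher in 20 of 29 cases, with a median of 0.88, while 5.30% of all genes were called higher.

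In the membrane arm, Ndufa1 had 128, 205 and 222 CPM in D316A-Tg chow, against 68.6, 98.5 and 126 CPM in WT-Tg chow, without overlap (log2 fold change 0.95, SE 0.19, adjusted p = 0.0205). Among the distal subunits, Ndufb5 rose by 0.99 (adjusted p = 0.0213), Ndufb6 by 1.02 (adjusted p = 0.0232) and Ndufb9, a partner of the acyl carrier protein, by 1.06 (adjusted p = 0.0362). Ndufc2, in the proximal arm, rose by 1.04 (adjusted p = 0.0247). Ndufab1, the mitochondrial acyl carrier protein that also serves fatty acid and lipoate synthesis, rose by 0.85 (SE 0.17, adjusted p = 0.0213). The smallest positive differences were those of Ndufb7 at 0.55 (adjusted p = 0.0944) and Ndufa8 at 0.65 (adjusted p = 0.0558), neither past the threshold. Ndufs5, an accessory subunit on the side of the intermembrane space, had the largest, 1.51 (SE 0.24, adjusted p = 0.0105), but shares its reads with a copy and is taken up separately.

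Ndufa4 and Ndufa4l2 went opposite ways on chow. Ndufa4 had 345, 631 and 678 CPM in D316A-Tg chow, against 195, 277 and 386 CPM in WT-Tg chow, with overlapping groups (log2 fold change 1.00, SE 0.23, adjusted p = 0.0272). Ndufa4l2 was the one member with a negative value, at 1.61, 2.83 and 4.66 CPM in D316A-Tg chow, against 3.57, 5.08 and 7.66 CPM in WT-Tg chow. Its log2 fold change was -0.92 (SE 0.28) and missed the threshold (adjusted p = 0.0579). With that lymphocyte term it was -1.17 (adjusted p = 0.00144), and with those libraries left out -1.12 (adjusted p = 0.0328).

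Of the assembly factors, Ndufaf4, which helps to form the Q module with Ndufaf3, had 30.7, 40.3 and 45.7 CPM in D316A-Tg chow, against 18.5, 24.7 and 29.0 CPM in WT-Tg chow. It was the one assembly factor whose groups did not overlap (log2 fold change 0.69, SE 0.15, adjusted p = 0.0230), and its call was lost in 6 of 12 fits that left out a library, with an adjusted p of up to 0.0690. Ndufaf5, which hydroxylates an arginine of Ndufs7, had 13.9, 22.3 and 23.4 CPM in D316A-Tg chow, against 11.1, 12.6 and 16.8 CPM in WT-Tg chow, with overlap (log2 fold change 0.58, SE 0.17, adjusted p = 0.04995). It thus sat at the edge of the threshold. The remaining factors were Ndufaf3 at 0.58 (adjusted p = 0.0798), Ndufaf1 at 0.57 (0.0729), Ndufaf2 at 0.56 (0.0914), Ndufaf6 at 0.52 (0.0961) and Ndufaf7, an arginine methyltransferase, at 0.49 (0.131). In all, 5 subunits and 1 assembly factor were higher in every D316A-Tg chow library than in any WT-Tg chow library (Ndufa1, Ndufa6, Ndufs5, Ndufs8, Ndufv2 and Ndufaf4), while 2.26% of all genes tested were. With the counts of its copy added, Ndufs5 overlapped between the groups, from 87.8 CPM in D316A-Tg chow and up to 141 CPM in WT-Tg chow. No member was lower in every D316A-Tg chow library, while 1.81% of all genes were.

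**Figure D2:**
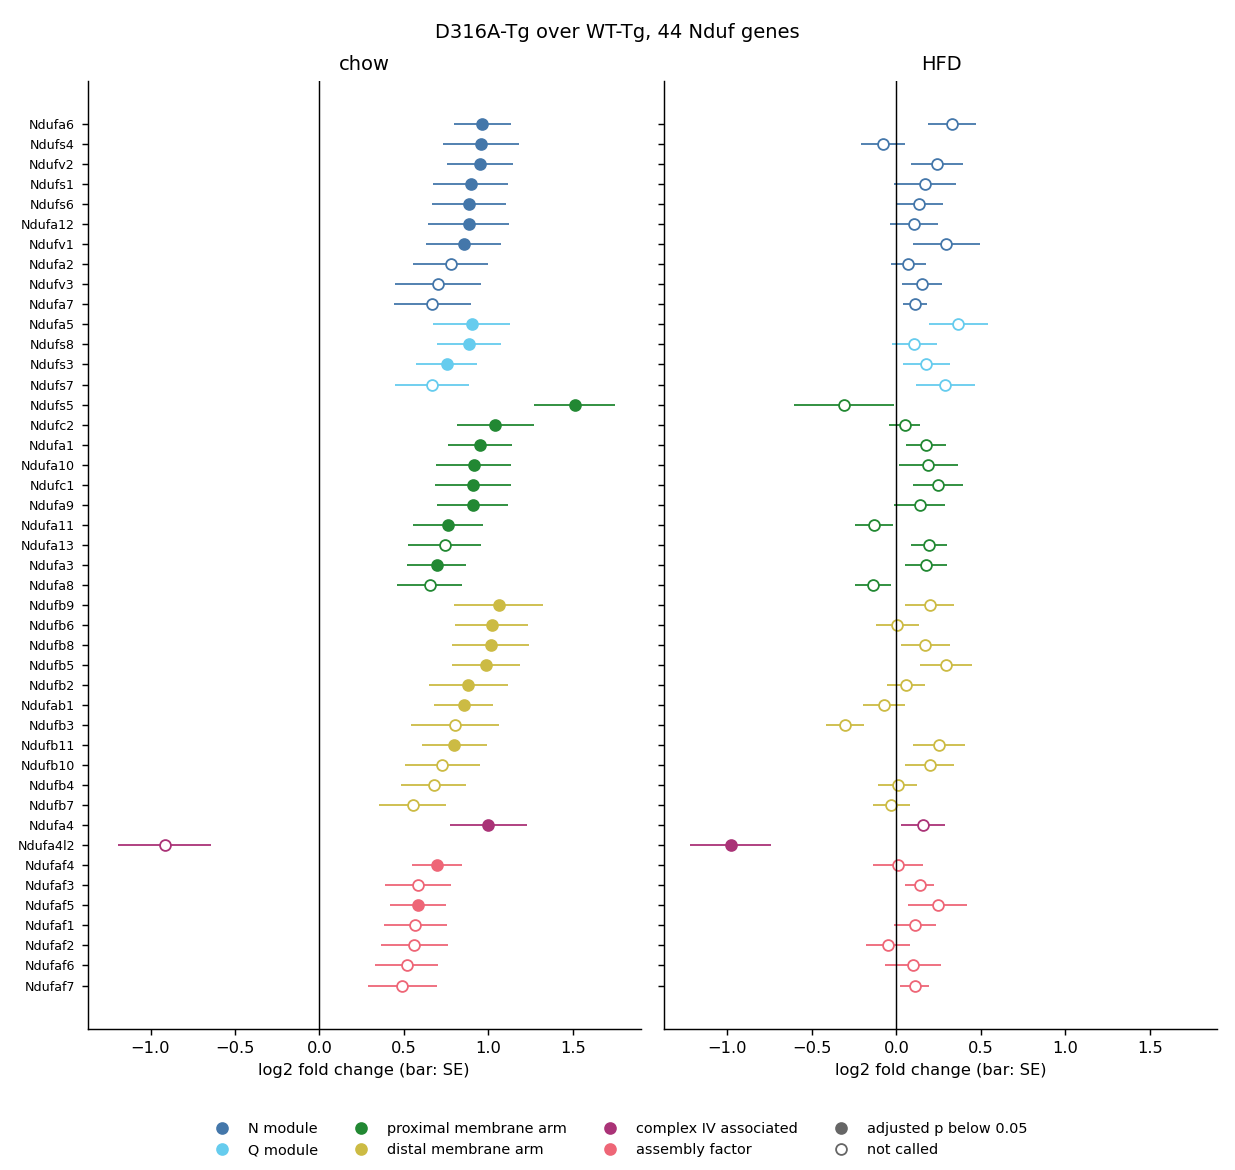
Log2 fold change, D316A-Tg over WT-Tg, of 44 of the 45 genes on HFD and on chow, with the SE from edgeR as bars, coloured by module, and filled symbols for genes called at an adjusted p below 0.05. On chow 43 of 44 points lie right of 0 with the assembly factors at 0.49 to 0.69, and on HFD the points lie around 0.16 for subunits, with Ndufa4l2 far to the left at -0.98.

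**Figure D3:**
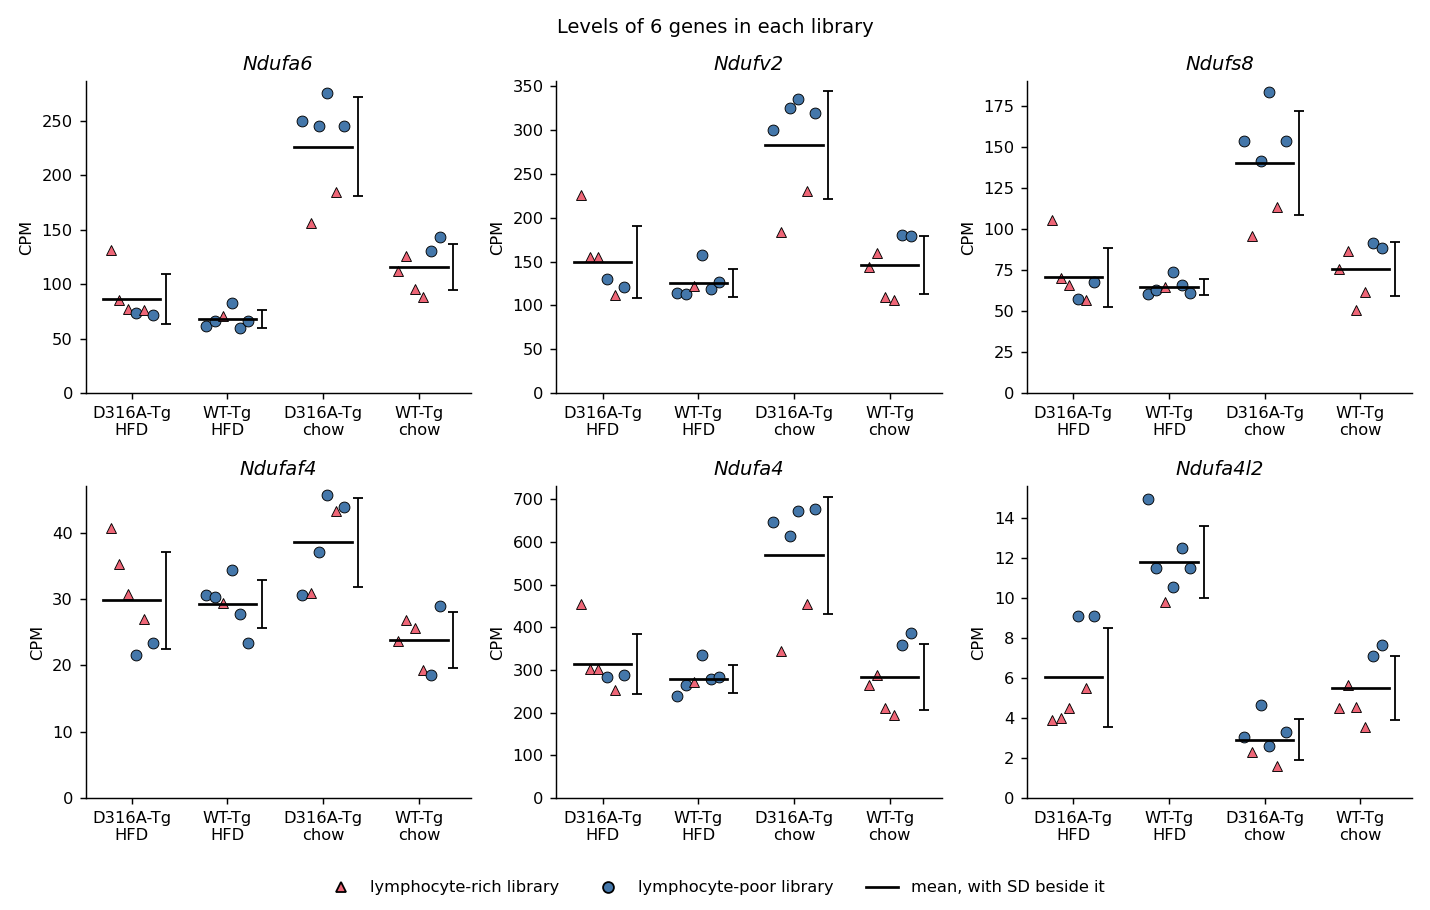
CPM of Ndufa6, Ndufv2, Ndufs8, Ndufaf4, Ndufa4 and Ndufa4l2 in each of the 24 libraries by group. Points are libraries, triangles are lymphocyte-rich libraries, horizontal lines are means and bars are SD. The D316A-Tg chow group has the highest mean for the first 5 genes, with 156 to 276 CPM for Ndufa6, and the lowest mean for Ndufa4l2, with 1.61 to 4.66 CPM. Several libraries of other groups reach into its range for Ndufaf4, Ndufa4 and Ndufa4l2, and D316A-Tg HFD library 7 does so for Ndufv2 and Ndufs8.

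On HFD, the D316A-Tg and WT-Tg libraries differed little in the Nduf genes, and the one called, Ndufa4l2, was lower. None of the 36 subunits without Ndufa4 and Ndufa4l2 was called. Among 14649 genes tested, 8.47% were called in either direction, 4.51% higher and 3.96% lower. Of 38 subunits 1 fell (Ndufa4l2) and none rose, and none of the 7 assembly factors was called. At an unadjusted p below 0.05 the counts were 3 subunits and none of the assembly factors. The median log2 fold change was 0.16 over subunits and 0.11 over assembly factors, against 0.01 over all genes. The largest positive values were those of Ndufa5 at 0.36 (adjusted p = 0.177), Ndufa6 at 0.33 (adjusted p = 0.147) and Ndufb5 at 0.30 (adjusted p = 0.209), and the most negative after Ndufa4l2 were Ndufs5 at -0.31 (adjusted p = 0.485), Ndufb3 at -0.30 (adjusted p = 0.103) and Ndufa8 at -0.14 (adjusted p = 0.387). The 7 core subunits lay between 0.11 (Ndufs8) and 0.29 (Ndufv1), and the assembly factors between -0.05 (Ndufaf2) and 0.25 (Ndufaf5).

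Other cell types differed between the genotypes on HFD. The muscle genes were called higher in D316A-Tg HFD in 12 of 12 cases, with Actn3 7.21 higher on the log2 scale, and 4 of 6 D316A-Tg HFD libraries were lymphocyte-rich, against 1 of 6 WT-Tg HFD libraries. Macrophage genes were called lower in D316A-Tg HFD in 4 of 7 cases, with a median of -1.17, and endothelial genes in 3 of 6, with a median of -0.62. Their summed levels ran from 202 to 597 CPM and from 264 to 526 CPM in D316A-Tg HFD, against 390 to 1294 CPM and 481 to 598 CPM in WT-Tg HFD. With the muscle score as a covariate the subunit median was -0.17 and with the lymphocyte-rich libraries left out -0.0261, so its sign was not stable. Both fits left no member called, and also no gene of the table. Without D316A-Tg HFD library 7, the library richest in muscle and in brown and beige fat cell transcripts, the median was 0.01. The part of macrophages, endothelial cells and brown or beige fat cells in the differences on HFD, that of Ndufa4l2 included, was not tested.

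Ndufa4l2 had 3.91, 5.00 and 9.10 CPM in D316A-Tg HFD, against 9.80, 11.5 and 14.9 CPM in WT-Tg HFD. Every D316A-Tg HFD library lay below every WT-Tg HFD library, which held for 2.00% of all genes tested while 1.43% lay wholly above, and the log2 fold change was -0.98 (SE 0.24, adjusted p = 0.0340). The call was lost in 9 of 12 fits that left out a library, with adjusted p up to 0.0734, while the sign was kept. It was -0.69 (adjusted p = 0.0765) with the lymphocyte term and -0.42 (adjusted p = 0.356) with those libraries left out. For comparison, Ndufa6 had 71.8, 76.4 and 132 CPM in D316A-Tg HFD, against 60.04, 66.01 and 82.8 CPM in WT-Tg HFD, and Ndufaf4 had 21.5, 28.9 and 40.8 CPM in D316A-Tg HFD, against 23.4, 29.9 and 34.4 CPM in WT-Tg HFD, with both pairs of groups overlapping.

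The D316A-Tg effect differed between the diets for some of these genes. In a fit over all 24 libraries, the effect on HFD minus the effect on chow was called lower for 13 of 38 subunits and 1 of 7 assembly factors, with 12.9% of 16072 genes called, 6.86% lower and 6.08% higher. The difference was negative for all 45 members, with a median of -0.70 over subunits and -0.44 over assembly factors, against 0.07 over all genes. The subunits called were Ndufs5 at -1.81 (adjusted p = 0.00677), Ndufb3 at -1.09, Ndufs4 at -1.02, Ndufb6 at -1.001, Ndufc2 at -0.98, Ndufab1 at -0.91 (adjusted p = 0.0110), Ndufa11 at -0.88, Ndufa4 at -0.83, Ndufb8 at -0.83, Ndufb2 at -0.81, Ndufa8 at -0.78, Ndufs8 at -0.77 and Ndufa1 at -0.76. The assembly factor was Ndufaf4 at -0.67 (SE 0.22, adjusted p = 0.0452). Its call was lost in 16 of 24 fits that left out a library, with an adjusted p of up to 0.0814. Ndufs8 was the only core subunit among the genes called, and Ndufa4l2 had the value nearest 0, -0.05 (adjusted p = 0.934). Once the fit held the lymphocyte term, Ndufs5 (-1.35, adjusted p = 0.0307) and Ndufaf4 (-0.79, adjusted p = 0.0499) were the members called, among 6.45% of all genes, and with those libraries left out 30 subunits were, among 9.39% of all genes. Leaving out single libraries moved the number of subunits called between 7 (without WT-Tg chow library 3, and also without D316A-Tg HFD library 11) and 30 (without D316A-Tg chow library 8). It came to 8 without WT-Tg chow library 1 or 4, D316A-Tg chow library 7 or 10, WT-Tg HFD library 4 or D316A-Tg HFD library 8, and to 20, 22, 25 and 28 without D316A-Tg chow library 11, WT-Tg chow library 6, WT-Tg chow library 5 and D316A-Tg HFD library 7.

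For 8 of the genes, counts were also found on copies of their sequence, mostly processed pseudogenes, which are intronless copies of a gene's transcript elsewhere in the genome. The share on the copies differed between the tables and was largest in 5 of the genes. Of all stretches of 50 bases in the transcripts of those 5 (GENCODE M21, GRCm38), 37.0% in Ndufb4, 35.8% in Ndufs3, 31.1% in Ndufs5, 17.2% in Ndufa12 and 12.3% in Ndufab1 occur also in such a copy. The median share of counts on the copies, of gene and copies together, was 1.41% in D316A-Tg HFD, 0.525% in WT-Tg HFD, 28.2% in D316A-Tg chow and 25.3% in WT-Tg chow for Ndufb4. For Ndufab1 it was 3.13%, 3.28%, 54.2% and 53.6% in the same groups, for Ndufs3 2.30%, 2.43%, 33.1% and 31.4%, and for Ndufa12 22.7%, 24.0%, 56.1% and 55.3%. Of the other 3 genes, Ndufs6 had median shares of 0.630%, 0.759%, 8.50% and 8.35% and Ndufb11 0.981%, 1.01%, 2.72% and 2.72%, while Ndufa11 stayed at or below 0.517% in every library with no such difference between the tables. Within a table the 2 genotypes were close in Ndufb4, Ndufab1, Ndufs3 and Ndufa12, and the chow table put more counts on the copies than the HFD table. Whether mapping or counting was set differently for the 2 tables was not tested.

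The share for Ndufa12 also varied between HFD libraries, from 10.3% to 24.2% in D316A-Tg and from 10.5% to 35.7% in WT-Tg. Ndufs5 is the case where the share on the copy differed most between libraries of 1 diet. Its copy BC002163 lies on chromosome 16 (chr16:42955631-42955949, GRCm38), while Ndufs5 itself is on chromosome 4 (chr4:123712710-123718202, minus strand). Over 319 aligned bases of the 321-base coding sequence 2 differ (99.37% identity), and the longest identical run is 214 bases. The first 240 coding bases of Ndufs5 and the matching stretch of the copy, from GENCODE M21, show how little separates them, with the 2 differing bases in capitals.
Ndufs5: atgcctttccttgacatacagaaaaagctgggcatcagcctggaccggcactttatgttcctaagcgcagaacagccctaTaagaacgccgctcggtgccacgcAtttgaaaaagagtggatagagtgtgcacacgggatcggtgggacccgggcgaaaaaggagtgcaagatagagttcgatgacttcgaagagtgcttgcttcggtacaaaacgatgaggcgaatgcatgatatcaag
BC002163: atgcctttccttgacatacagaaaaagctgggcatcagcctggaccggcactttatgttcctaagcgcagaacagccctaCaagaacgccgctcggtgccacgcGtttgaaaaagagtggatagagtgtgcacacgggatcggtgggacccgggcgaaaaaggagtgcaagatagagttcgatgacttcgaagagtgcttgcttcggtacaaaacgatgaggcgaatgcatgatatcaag
The share of counts on BC002163 fell into steps. In D316A-Tg HFD it was 5.48% and 7.50% in 2 libraries, 40.7% to 42.4% in 3 and 83.9% in library 7, and in WT-Tg HFD it was 5.99% and 7.39% in 2 libraries and 39.7% to 41.0% in 4. In D316A-Tg chow it was 68.0% to 71.1% in 5 libraries and 82.5% in library 9, against 83.3% to 85.5% in all 6 WT-Tg chow libraries. No library lay between these steps, and on chow the step went with the genotype in all but 1 library.

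Counted on its own, Ndufs5 had 27.4, 45.5 and 57.9 CPM in D316A-Tg chow, against 10.4, 14.9 and 22.9 CPM in WT-Tg chow, with no overlap. On HFD it had 12.2, 30.1 and 46.5 CPM in D316A-Tg libraries, against 27.3, 33.8 and 57.5 CPM in WT-Tg libraries, and the lowest of these was library 7. With the copy added, the gene averaged 53.7 ± 10.9 CPM in D316A-Tg HFD, 54.3 ± 6.36 in WT-Tg HFD, 161 ± 47.6 in D316A-Tg chow and 100.3 ± 30.7 in WT-Tg chow (SD, n = 6 each). The log2 fold change on chow was then 0.68 (SE 0.25) and no longer passed the test (adjusted p = 0.101 by edgeR), and the difference of the effect between diets was -0.70 (adjusted p = 0.0991). The sums place Ndufs5 among the other subunits rather than above them on chow. For the members as a whole the addition of the copies, chosen after the data were seen, left 26 subunits and 1 assembly factor called higher on chow. In that fit 8.44% of all genes were called in either direction, and the subunit median was 0.88.

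**Figure D4:**
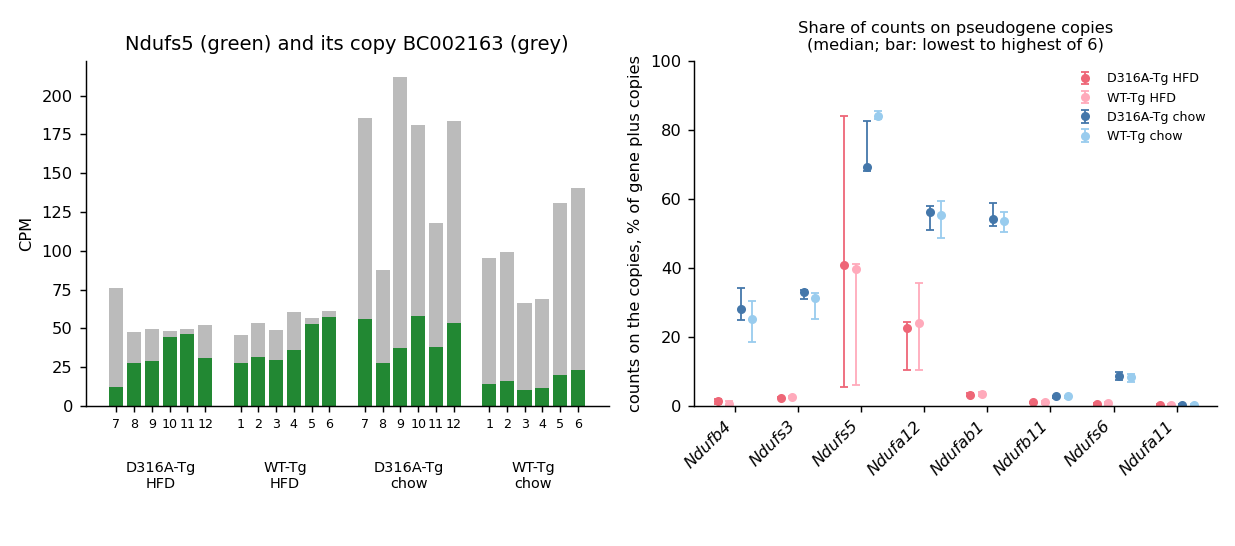
Left, CPM of Ndufs5 and of its copy BC002163 in each of the 24 libraries. Right, share of counts on pseudogene copies for each gene with copies and each group, as the median with bars from the lowest to the highest of 6 libraries. For Ndufs5 the median share is 84.1% in WT-Tg chow libraries and lower in every D316A-Tg chow library and every HFD library, the nearest being D316A-Tg HFD library 7 at 83.9%. For the other genes except Ndufa11 it is higher in both chow groups than in both HFD groups.

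Setting HFD against chow, the subunits fell in D316A-Tg fat and went both ways in WT-Tg fat. These comparisons use the same libraries as the genotype comparisons, and the diet goes with age, base-calling version and table, so that these cannot be told apart. In D316A-Tg, 31 of 38 subunits fell and 2 rose (Ndufa4l2 at 1.05 and Ndufb4 at 0.85), with a median log2 fold change of -0.84, while 37.2% of 16072 genes were called in either direction, 19.3% lower and 17.9% higher. The largest decreases were those of Ndufa1 at -1.54 (SE 0.16, adjusted p = 7.46e-08) and Ndufa6 at -1.40 (SE 0.16, adjusted p = 3.56e-07). Of the assembly factors 5 of 7 fell, Ndufaf2 at -0.71, Ndufaf5 at -0.63, Ndufaf3 at -0.60, Ndufaf6 at -0.49 and Ndufaf7 at -0.43, and Ndufaf1 and Ndufaf4 did not pass the test at -0.21 and -0.37. The subunit median was thus further from 0 than that of the assembly factors, -0.49.

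In WT-Tg, 6 subunits fell and 6 rose, and none of the 7 assembly factors was called, with medians of -0.14 over subunits and -0.08 over assembly factors, while 60.4% of all genes were called. The 6 that fell were Ndufa1 at -0.78, Ndufa6 at -0.77, Ndufa5 at -0.72, Ndufb10 at -0.63, Ndufs7 at -0.63 and Ndufb11 at -0.56, and each of them fell in D316A-Tg as well. The 6 that rose were Ndufb4 at 1.51, Ndufs5 at 1.32, Ndufa4l2 at 1.10, Ndufab1 at 0.92, Ndufs3 at 0.64 and Ndufa12 at 0.49, of which all but Ndufa4l2 share counts with a pseudogene. Ndufb11, among those that fell, also has counts on a copy, with a smaller share. With the copies added, Ndufs5 fell by 0.88 on the log2 scale (adjusted p = 0.000908), Ndufb4 remained higher at 1.09, and Ndufab1, Ndufs3 and Ndufa12 at -0.15, 0.14 and -0.25 did not pass the test. In WT-Tg then 2 subunits rose and 8 fell, among 60.4% of all genes called in either direction. In D316A-Tg 1 rose and 35 fell, among 37.2%. With the lymphocyte-rich libraries left out, 31 subunits and 4 assembly factors were called in WT-Tg, among 50.5% of all genes, so how the share of members called compares with that of all genes turned round with these libraries.

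**Figure D5:**
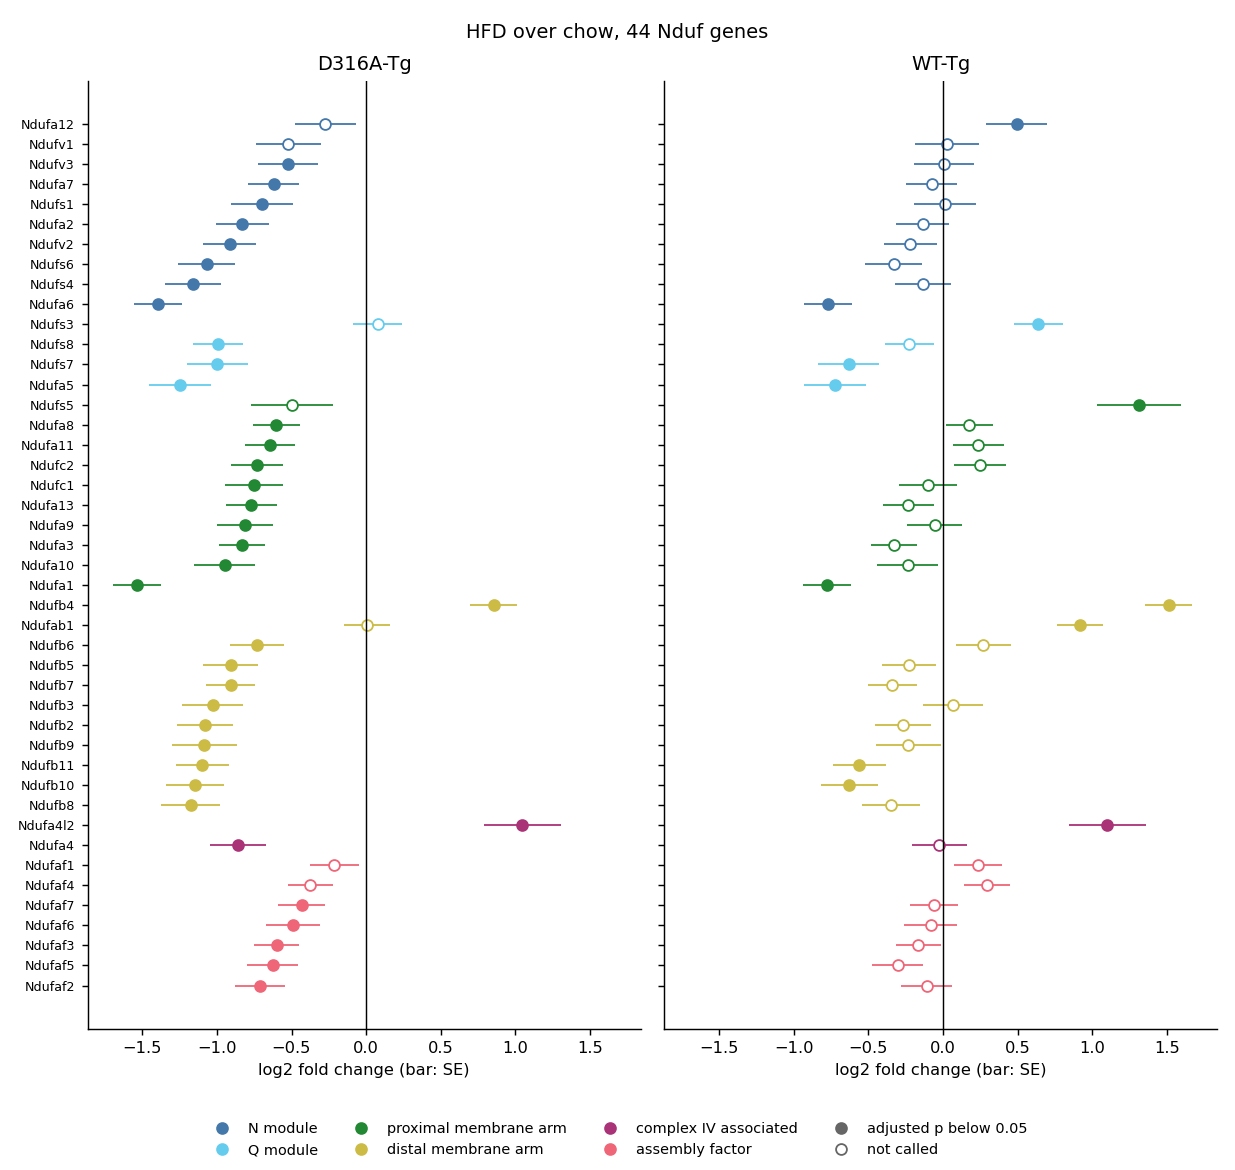
Log2 fold change, HFD over chow, of 44 of the 45 genes in D316A-Tg and in WT-Tg libraries, with the SE from edgeR as bars, coloured by module, and filled symbols for genes called at an adjusted p below 0.05. In D316A-Tg most subunits lie left of 0, around -0.84, and in WT-Tg they lie nearer to 0, with Ndufb4, Ndufs5, Ndufa4l2, Ndufab1, Ndufs3 and Ndufa12 called to the right. Of the genes with counts on copies, Ndufb11 lies to the left, at -0.56.

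Other genes of the pathway, from lists chosen with earlier results of these data known, gave the following counts. Of 14 complex I assembly factors without an Nduf symbol 11 were tested. While 5.30% of all genes were called higher in D316A-Tg on chow, 4 of these 11 rose. They were Tmem70 at 0.89 (adjusted p = 0.0245), Tmem126a at 0.76 (adjusted p = 0.0230), Timmdc1 at 0.56 (adjusted p = 0.0496) and Foxred1 at 0.50 (adjusted p = 0.0479). Their median over the 11 was 0.54, close to the 0.57 of the Nduf assembly factors, and on HFD none of the 11 was called and the median was 0.01. The difference between diets was called lower for 5 of 11, against 6.86% of all genes. The 5 were Acad9 at -0.90, Tmem70 at -0.84, Tmem126a at -0.81, Timmdc1 at -0.76 and Tmem126b at -0.58. Acad9 and Tmem126b work with Ndufaf1 in the complex that builds the membrane arm.

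The complex I subunits encoded by mitochondrial DNA were called higher in D316A-Tg on chow in 5 of 6 tested cases, while 5.30% of all genes were. Their median log2 fold change was 0.99, with mt-Nd6 at 1.19 (adjusted p = 0.0138). On HFD 2 of 7 rose, mt-Nd3 at 0.75 (adjusted p = 0.0488) and mt-Nd5 at 0.47 (adjusted p = 0.0463), while 4.51% of all genes did. The median of the 7 was 0.45. Nuclear subunits of the other respiratory complexes rose on chow in 3 of 4 cases for complex II, 9 of 9 for complex III and 9 of 10 for complex IV, with medians of 0.93, 0.99 and 0.93, and in no case on HFD. The median of the complex I subunits, 0.88, lay close to these. Markers of brown and beige fat cells were higher alongside on chow. The summed level of 8 such genes ran from 921 to 1708 CPM in D316A-Tg chow, against 137 to 822 CPM in WT-Tg chow, and 4 of 8 were called higher, while Ucp1 at 1.85 was not (adjusted p = 0.223). The part of these cells in the result was not tested.

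Some members overlap a neighbouring gene, and the sources used here do not say how reads were assigned by strand. On the opposite strand the overlap covers 65.6% of the exons of Ndufaf2, 39.0% of Ndufb6, 30.0% of Ndufa13, 12.9% of Ndufb11, 12.3% of Ndufb5 and 11.5% of Ndufa2, and on the same strand 19.5% of Ndufb9. The values of these genes are uncertain to that extent.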

How the data were processed

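The data are RNA-seq counts per gene from 24 libraries of mouse subcutaneous white fat, prepared with a stranded mRNA kit per the labels' protocols. The authors deposited raw, un-normalized counts in a chow table and an HFD table. Per the submitters' processing notes, the tools were bcl2fastq, FastQC, STAR 2.4.1 and DESeq2 on mm10, and per the labels base calls were made with bclfastq 2.16.0.10 in the HFD libraries and bcl2fastq 2.20.0.422 in the chow libraries. The sources used here do not give the counting tool, its annotation or its use of strand.

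Genes were filtered with filterByExpr, scaled by TMM and tested with edgeR 4.0.16 (robust quasi-likelihood F test, R 4.3.3) with Benjamini-Hochberg adjustment over all genes tested and a threshold of 0.05. Genotype was tested within each table. Diet and the difference between diets were tested in a single fit of all 24 libraries over genes of both tables. CPM are on a TMM scale over all 24 libraries, and log2 CPM used a prior count of 2. Members were all symbols beginning with Nduf. Named were all assembly factors, core subunits, Ndufa4 and Ndufa4l2, the subunits with the lowest adjusted p and most extreme fold changes, and every member called on HFD or between diets. Of these 1 gene is not reported here on its own, and it stays in the counts and medians. The members and lists were chosen with earlier results of these data known. Gene positions and lengths are from GENCODE M21 (GRCm38) and promoters from RefSeq (GRCm38.p6). Scripts were tested on simulated data. Alternatives were other scalings and filters, DESeq2 1.42.0, limma 3.58.1 (voom), terms for lymphocyte, muscle and adipocyte content, pseudogene copies added, and each library left out. Counts limit the precision of low genes, and no unit other than the count was used as deposited.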

Additional observations from a re-analysis of the deposited data

Results flagged for a closer look

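Within each group of 6 libraries, a value was singled out when its distance to the nearest other library was large for the range of the group. Chance gives about 1 in 20 groups, or 9.2 of the 184 groups examined, and 34 were found, of which nearly all came from 2 HFD libraries. The groups share the same libraries and the genes vary together, so they are not independent. The number found beside 9.2 therefore carries no test.

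D316A-Tg HFD library 7 stood high for 21 genes and for the subunit score. Its subunit score was 6.96. Among the N and Q module genes its CPM were 405 for Ndufv1, 134 for Ndufs7, 132 for Ndufa6, 105 for Ndufs8, 91.4 for Ndufa5, 87.6 for Ndufa12 and 85.8 for Ndufs6. Among the membrane arm genes they were 314 for Ndufb9, 301 for Ndufa10, 256 for Ndufb8, 226 for Ndufa9, 183 for Ndufb11, 179.6 for Ndufa13, 166 for Ndufb10, 155 for Ndufb5, 129 for Ndufa3, 91.6 for Ndufa1 and 84.8 for Ndufc1. Ndufa4 had 455 CPM there, and the assembly factors Ndufaf5 and Ndufaf6 had 21.8 and 9.35 CPM. Of all 24 libraries it had the highest muscle score, 9.28, and the highest brown and beige fat cell score, 6.96, with Ucp1 at 1006 CPM, and the part of either in these values was not tested. In D316A-Tg HFD library 12, Ndufaf2 was high at 16.4 CPM.

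WT-Tg HFD library 4 stood high for 10 genes and for the assembly score, which was 4.37. Its CPM were 204 for Ndufa10, 157 for Ndufv2, 131 for Ndufab1, 121 for Ndufb11, 104 for Ndufb6, 96.7 for Ndufa3, 73.6 for Ndufa11, 56.9 for Ndufc1, 46.9 for Ndufb2 and 8.84 for Ndufaf6. Its muscle and B lymphocyte scores, 0.13 and 0.41, were within the range of the other WT-Tg HFD libraries. Its brown and beige fat cell score, 5.34, and its mature adipocyte score, 11.17, were the highest of that group, with the brown and beige genes summing to 699 CPM against at most 340 CPM in the other 5, and their part was not tested.

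By the test of the difference in edgeR, the D316A-Tg effect differed between the diets for 14 genes, among 12.9% of 16072 genes (6.86% lower). On the log2 scale, HFD minus chow, the values were -1.81 for Ndufs5, -1.09 for Ndufb3, -1.02 for Ndufs4, -1.001 for Ndufb6, -0.98 for Ndufc2, -0.91 for Ndufab1, -0.88 for Ndufa11, -0.83 for Ndufa4, -0.83 for Ndufb8, -0.81 for Ndufb2, -0.78 for Ndufa8, -0.77 for Ndufs8, -0.76 for Ndufa1 and -0.67 for Ndufaf4. With its copy added, Ndufs5 stood at -0.70 and did not pass that test (adjusted p = 0.0991 by edgeR). With the lymphocyte term in the fit, 1 subunit and 1 assembly factor were called, among 6.45% of all genes. The muscle score left 3 subunits and 0 assembly factors called, among 1.89% of all genes.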

How the results depend on the processing

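On chow every subunit median stayed positive, from 0.57 with the adipocyte score, or with the lymphocyte term and muscle score together (chosen, like the added copies, after seeing the data), to 1.18 with limma voom. The assembly factor median was 0.31 with the adipocyte score, 0.32 with the B lymphocyte score, 0.31 with the lymphocyte term and muscle score, 0.33 in lymphocyte-rich libraries alone and 0.87 with voom. Leaving out 1 library gave 0.78 to 0.98 and 0.48 to 0.67. Subunits called numbered 14 without a filter, 2 with the muscle score and 1 in lymphocyte-rich libraries alone, and 1 to 37 with 1 library left out, where 2.13%, 1.71% and 0.923% of all genes were called in the first 3 of these fits. Assembly factors called numbered 7 with voom and with all 24 libraries in a single fit, 6 with DESeq2 and with the lymphocyte term, 4 with the B lymphocyte score and with lymphocyte-rich libraries left out, 1 with upper-quartile scaling, no filter, no robust step or copies added, 0 with the muscle score and in lymphocyte-rich libraries alone, and 0 to 6 with 1 library left out. The shares of all genes called were 71.0% with voom, 22.5% in the single fit, 19.6% with DESeq2 and 28.9% with the lymphocyte term. They were 25.1% with the B lymphocyte score and 15.3% with lymphocyte-rich libraries left out. Upper-quartile scaling gave 7.26%, no robust step 8.54% and copies added 8.44%.

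On HFD 2 subunits were called with voom, among 29.4% of all genes, and 0 to 2 with 1 library left out. With the B lymphocyte score, the lymphocyte term or the adipocyte score 0 were called, among 0.164%, 0.539% and 8.38% of all genes. With the muscle score, alone or with the lymphocyte term, 0 subunits and no gene of the table were called. With the lymphocyte-rich libraries left out, 2 D316A-Tg and 5 WT-Tg libraries remained, and 0 subunits and no gene were called. The lymphocyte-rich libraries alone held 1 WT-Tg library, and the subunit median among them was 0.26. The subunit median turned negative with the muscle score (-0.17), with lymphocyte-rich libraries left out (-0.0261) and with the lymphocyte term and muscle score (-0.23), and the assembly factor median with the muscle score (-0.0197) and with both (-0.0538). The HFD difference in the class gap turned to 0.0064 without Ndufa4 and Ndufa4l2 and to 0.0397 with assembly factors of other symbols added.

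For the difference between diets, subunits called numbered 38 with voom, 30 with lymphocyte-rich libraries left out, 22 with DESeq2, 20 with the adipocyte score, 7 without a filter, 3 with the muscle score, 1 with the B lymphocyte score or the lymphocyte term, and 7 to 30 with 1 library left out. The shares of all genes called in these fits were 64.2% with voom, 9.39% with lymphocyte-rich libraries left out, 18.7% with DESeq2, 26.2% with the adipocyte score, 5.44% without a filter, 1.89% with the muscle score, 8.11% with the B lymphocyte score and 6.45% with the lymphocyte term. Assembly factors called numbered 7 with voom, 2 with the adipocyte score, 0 without a filter, with the B lymphocyte score or with the muscle score, and 0 to 3 with 1 library left out. The medians were -1.07 and -0.70 with voom and -0.33 and -0.11 with the B lymphocyte score, and the assembly factor median was -0.19 with the lymphocyte term. For HFD against chow in D316A-Tg, 3 assembly factors were called without a filter and 3 to 6 with 1 library left out. In WT-Tg, subunits called numbered 22 with the B lymphocyte or the adipocyte score and 31 with lymphocyte-rich libraries left out, and assembly factors 1 with voom, 3 with the B lymphocyte score, 2 with the lymphocyte term or the adipocyte score and 4 with lymphocyte-rich libraries left out. The shares of all genes called in WT-Tg were 53.7% with the B lymphocyte score, 62.6% with the adipocyte score and 50.5% with lymphocyte-rich libraries left out. They were 78.4% with voom and 53.4% with the lymphocyte term. The ratio of medians per exon length was 8.48 in D316A-Tg HFD and 8.49 in WT-Tg HFD with the longest transcript. The cause of these changes was not tested.

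Replicate numbers recur across the diets. Of 12 pairs with the same number 7 had a correlation of deviations above 0.1 (range -0.37 to 0.61), and 2 libraries matched their own number best. The deviations run over all genes past the filter, and lymphocyte and muscle content varied between libraries. These values therefore cannot decide whether the numbers pair the libraries. With a replicate block the difference between diets was called for 14 subunits and 0 assembly factors, among 16.6% of all genes. The diet comparison in D316A-Tg was then called for 32 subunits and 3 assembly factors, among 35.2% of all genes.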
